A study of Mus musculus with 11 samples.

Results

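The Rhox genes (reproductive homeobox, X-linked) encode transcription factors with a homeodomain, the DNA-binding fold of the homeobox proteins. In the mouse they lie side by side on the X chromosome and are known mainly from the testis, ovary, epididymis and placenta. The promoters of several members, Rhox5 among them, are methylated in somatic mouse tissues, and members are switched on in mouse cells in which DNA methylation is lost. The cluster is usually divided into an alpha, a beta and a gamma subcluster, and the alpha subcluster holds tandem copies of Rhox2, Rhox3 and Rhox4 that are nearly identical in sequence.

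The family was taken as every gene of the deposited count table whose symbol begins with Rhox, which gave 31 of 25239 genes. All 31 lie on mm10 chromosome X between 37213805 and 38129966, a stretch of 916162 bases. The study sequenced poly(A)-selected RNA of J1 mouse embryonic stem cells mutant for DNA methyltransferases, with 1 library per genotype at day 0: TKO_602, TKO_FL and TKO. The labels of other samples spell the genotype of the last as DNMT TKO. The series' design text joins the suffixes of the others to TKO with a plus sign, and the labels do not spell out what these suffixes mean. All 3 cultures grew on mitomycin-treated mouse embryonic fibroblasts in medium with serum and LIF, so fibroblast RNA can be present in each library. The labels do not say whether a genotype is 1 clone. The immunoprecipitation samples of the series, 8 of its 11 samples, were not analysed here.

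The libraries held 43158441 reads assigned to genes in TKO_602, 19573689 in TKO_FL and 21133660 in TKO. Dnmt1, which encodes the maintenance methyltransferase, had 2444 CPM in TKO_602, 3364 CPM in TKO_FL and 159 CPM in TKO, where CPM is reads per 1000000 reads of the library after scaling with TMM factors. The embryonic stem cell markers were present in every library, with Pou5f1 at 1169, 1290 and 1386 CPM and Nanog at 518, 683 and 439 CPM in TKO_602, TKO_FL and TKO. Others, such as Klf4 and Zfp42, differed more between the libraries and are given below. The file headers place the alignment of TKO_602 apart from those of TKO_FL and TKO, so a difference of genotype and one of processing or batch cannot be told apart for it. Because each genotype has 1 library, the comparisons are between libraries, without replicates, and no p-value is given. Intervals are exact 95% binomial intervals of a ratio of CPM and cover counting error only.

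Of the 31 members, 25 had at least 1 read in a library and 16 had reads in all 3. The number with reads was 22 in TKO_602, 19 in TKO_FL and 22 in TKO. Another 6 were at 0 in every library: Rhox3a, Rhox3e, Rhox3c, Rhox3f, Rhox8 and Rhox12. A count of 0 allows up to 3 fragments, which corresponds to 0.134 CPM in TKO_602, 0.312 CPM in TKO_FL and 0.290 CPM in TKO. Reads that map equally well to several copies are left out of these counts, so the levels of the Rhox2, Rhox3 and Rhox4 copies can be underestimated, and a copy's value is uncertain. Rhox3a and Rhox3e share 648 exonic bases in the annotation, 61.8% of Rhox3a and 33.3% of Rhox3e, and reads there are counted for neither. The annotation also spreads Rhox4a over 130246 bases and Rhox3e over 296020 bases, so exons at distant positions carry their names. A level of at least 1 CPM was reached by 12 members in TKO_602, 8 in TKO_FL and 8 in TKO. The same 8 passed in all 3 libraries, namely Rhox1, Rhox2a, Rhox4g, Rhox5, Rhox6, Rhox9, Rhox10 and Rhox13, and Rhox2b, Rhox2c, Rhox2g and Rhox2h passed in TKO_602 only.

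**Figure D1:**
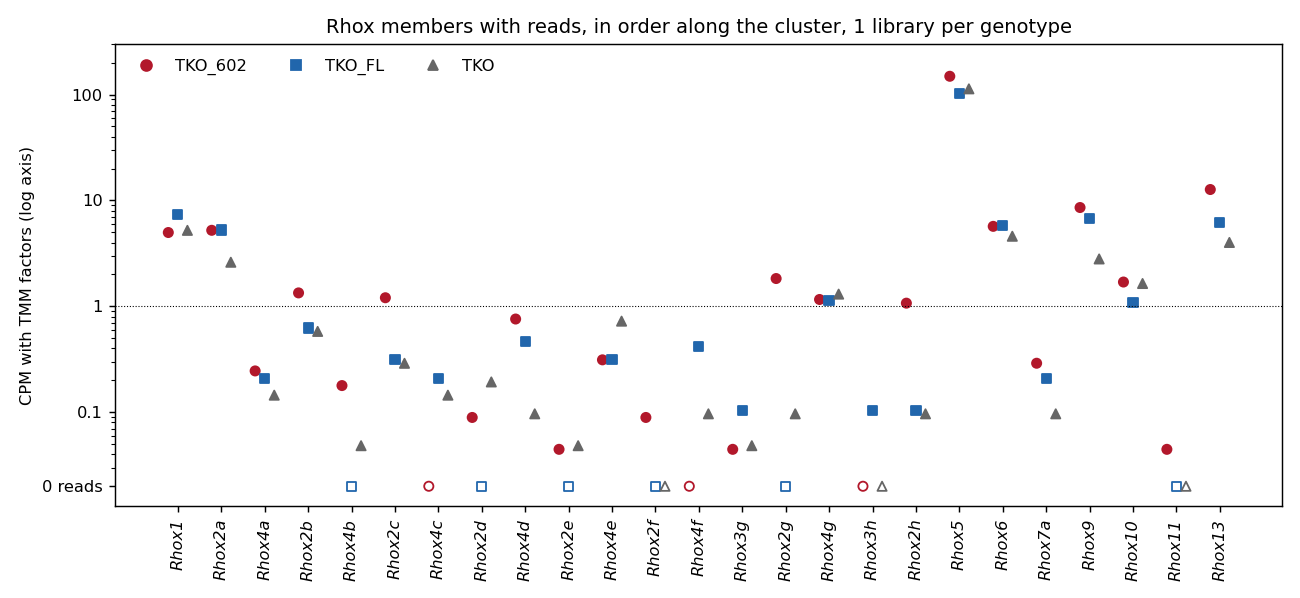
CPM (log axis) of the 25 Rhox members with reads, in their order along chromosome X, with 1 point per library. Rhox5 stands above 100 CPM in all 3 libraries, the other members stay below 15 CPM, and open symbols at the bottom mark 0 reads.

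The family as a whole was higher in TKO_602 than in the other libraries and level between TKO_FL and TKO. Its reads numbered 8793 in TKO_602, 2664 in TKO_FL and 2857 in TKO, and its summed CPM was 196.2, 139 and 138 in the same order. The ratio of summed CPM was 1.42 in TKO_602 against TKO (interval 1.34 to 1.51), 1.00 in TKO_FL against TKO (0.931 to 1.08) and 1.42 in TKO_602 against TKO_FL (1.33 to 1.51). Most of these reads came from 1 gene. Rhox5 held 75.8% of the family's reads in TKO_602 (exact interval 74.5 to 77.0), 73.5% in TKO_FL (71.0 to 75.9) and 82.0% in TKO (79.9 to 83.9). The remaining 30 members summed to 47.5 CPM in TKO_602, 36.7 CPM in TKO_FL and 24.9 CPM in TKO. Without Rhox5 the ratio was 1.91 in TKO_602 against TKO (1.67 to 2.20), 1.48 in TKO_FL against TKO (1.25 to 1.74) and 1.29 in TKO_602 against TKO_FL (1.15 to 1.46). The level sum of the family between TKO_FL and TKO thus joined a slightly lower Rhox5 with a higher sum of the other members, not all of which were higher.

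By subcluster, the summed gamma genes (Rhox10 to Rhox13) differed most between TKO_602 and TKO, with 14.4 CPM in TKO_602, 7.28 CPM in TKO_FL and 5.65 CPM in TKO. Rhox13 alone supplied 12.7, 6.19 and 4.01 CPM in the same order, and Rhox10 had 1.70, 1.09 and 1.64 CPM. The gamma sum thus mostly follows Rhox13 and is not a trait of the subcluster. The gamma ratio was 2.55 in TKO_602 against TKO (1.93 to 3.43), 1.29 in TKO_FL against TKO (0.898 to 1.86) and 1.98 in TKO_602 against TKO_FL (1.53 to 2.60). The alpha genes summed to 18.6 CPM in TKO_602, 16.6 CPM in TKO_FL and 11.7 CPM in TKO, with ratios of 1.58 in TKO_602 against TKO (1.29 to 1.95), 1.42 in TKO_FL against TKO (1.11 to 1.81) and 1.12 in TKO_602 against TKO_FL (0.928 to 1.35). The beta genes other than Rhox5 stood at 14.5 CPM in TKO_602, 12.8 CPM in TKO_FL and 7.48 CPM in TKO. Their ratio was 1.94 in TKO_602 against TKO (1.51 to 2.52) and 1.71 in TKO_FL against TKO (1.28 to 2.30). Between TKO_602 and TKO_FL it was 1.14 (0.922 to 1.41), so counting error alone covers that difference.

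Members were compared gene by gene on log2 folds, the log2 of the ratio of CPM plus a pseudocount of 1, over genes with at least 1 CPM in either library and with a threshold of 2-fold. In TKO_602 against TKO, 3 of 12 members were at least 2-fold higher (Rhox13, Rhox2g and Rhox9) and 0 were lower, where 11.0% of all 13748 genes were higher and 8.06% lower, 19.0% in all. Rhox2b, Rhox2c, Rhox2g and Rhox2h entered that count only through TKO_602, where they are high. Among the 8 members at 1 CPM or more in every library, 2 were at least 2-fold higher and the median log2 fold was 0.33, beside a median of 0.03 over all genes. In TKO_FL against TKO, 1 of 8 members was higher (Rhox9) and 0 were lower, where 3.24% of 13563 genes were higher and 2.50% lower, 5.74% in all. The median of these 8 was 0.36, beside -7.4e-06 over all genes. In TKO_602 against TKO_FL, 1 of 12 members was higher (Rhox2g, which also entered only through TKO_602) and 0 were lower, where 6.75% of 13683 genes were higher and 4.87% lower, 11.6% in all. Among the 8 present in every library 0 were past 2-fold and the median of that comparison was 0.16, beside 0.03 over all genes. With so few members tested, 1 or 2 members make the difference between their shares and these background shares. Among other genes of chromosome X, 7.60% of 500 were higher and 11.2% lower in TKO_602 against TKO, and 3.17% of 504 were higher and 1.98% lower in TKO_FL against TKO. In TKO_602 against TKO_FL, 3.77% of 504 were higher and 8.33% lower. These counts depend on the pseudocount: with 0.1 they were 6, 1 and 4 in the 3 comparisons in this order, and with 5 they were 0 in each. The comparisons share libraries, so their folds are not independent of each other.

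**Figure D2:**
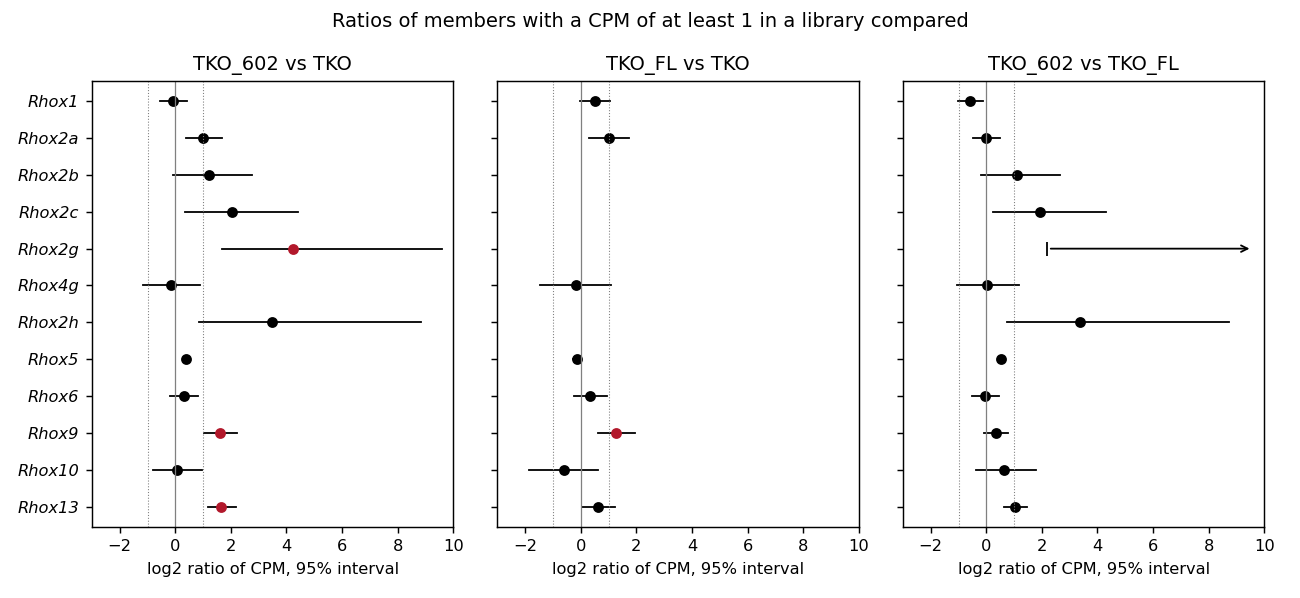
Log2 ratio of CPM, without a pseudocount, of the members with at least 1 CPM in a library compared, with exact 95% intervals that cover counting error only; red points are members past 2-fold on the log2(CPM + 1) scale, dotted lines mark 2-fold, and the arrow is a lower bound against a library with 0 reads. The intervals of Rhox9 and Rhox13 lie above 0 in TKO_602 against TKO, while those of Rhox1, Rhox4g, Rhox6 and Rhox10 cross 0 there.

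In the alpha subcluster, Rhox1 (chrX:37213805-37222258, minus strand), the member at one end of the cluster, had 223 reads or 4.98 CPM in TKO_602, 142 reads or 7.38 CPM in TKO_FL and 108 reads or 5.21 CPM in TKO. It was highest in TKO_FL and nearly equal in the other libraries. Its ratio was 0.954 in TKO_602 against TKO (0.684 to 1.35), 1.42 in TKO_FL against TKO (0.980 to 2.06) and 0.674 in TKO_602 against TKO_FL (0.496 to 0.921). Rhox1 was the only one of the 12 tested members whose interval lay below 1 in TKO_602 against TKO_FL.

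The Rhox2 copies, 8 in number, all had reads in at least 1 library. Together they stood at 10.9 CPM in TKO_602, 6.29 CPM in TKO_FL and 3.91 CPM in TKO, with ratios of 2.78 in TKO_602 against TKO (1.99 to 3.99), 1.61 in TKO_FL against TKO (1.06 to 2.46) and 1.73 in TKO_602 against TKO_FL (1.30 to 2.33). The copy that led them was Rhox2a (chrX:37244992-37249690, plus strand), the one nearest Rhox1. Rhox2a had 234 reads or 5.22 CPM in TKO_602, 101 reads or 5.25 CPM in TKO_FL and 54 reads or 2.61 CPM in TKO. It was thus equally high in TKO_602 and TKO_FL, with a ratio against TKO of 2.00 (1.31 to 3.17) and 2.01 (1.24 to 3.34). On the log2(CPM + 1) scale each of these is 0.79, short of the 2-fold threshold.

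The counts of the other Rhox2 copies followed another pattern. Reads that map equally well to several copies are left out of them, and the file headers place the alignment of TKO_602 apart from the others. Whether its processing differed, or affects the counts of single copies, was not tested. Without Rhox2a the copies summed to 5.67 CPM in TKO_602, 1.04 CPM in TKO_FL and 1.30 CPM in TKO, a ratio of 4.35 in TKO_602 against TKO (2.48 to 8.28), of 0.798 in TKO_FL against TKO (0.315 to 1.95) and of 5.45 in TKO_602 against TKO_FL (2.87 to 11.6). Rhox2g (chrX:37639112-37643470, minus strand) had 82 reads in TKO_602, 0 in TKO_FL and 2 in TKO. Its level of 1.83 CPM in TKO_602 was at least 5.87-fold higher than in TKO_FL, taking a floor of 3 fragments, or 6 reads, for TKO_FL and the reads of TKO_602 as counted. With the counting error of both libraries the exact interval of that ratio began at 4.56. In TKO_602 Rhox2g had 18.9 times its CPM in TKO (3.22 to 766, since TKO had 2 reads). Rhox2h (chrX:37668997-37673277, minus strand) had 48 reads in TKO_602, 2 in TKO_FL and 2 in TKO, with a ratio of 11.1 against TKO (1.81 to 456) and 10.3 against TKO_FL (1.68 to 424). These intervals are wide because the low libraries held a fragment or less.

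Rhox2c (chrX:37453659-37458375) had 54 reads or 1.20 CPM in TKO_602, 6 reads or 0.312 CPM in TKO_FL and 6 reads or 0.290 CPM in TKO. Its ratio was 4.16 in TKO_602 against TKO (1.28 to 21.4) and 3.86 against TKO_FL (1.19 to 19.9). Rhox2b (chrX:37412105-37416806) had 60 reads or 1.34 CPM in TKO_602, 12 reads or 0.624 CPM in TKO_FL and 12 reads or 0.579 CPM in TKO. It too was higher in TKO_602, but the interval of its ratio of 2.31 against TKO (0.946 to 6.79) includes 1. Rhox2d, Rhox2e and Rhox2f had at most 4 reads in any library. Rhox2a accordingly made up 48.0% of the reads of the Rhox2 copies in TKO_602 (41.5 to 54.4), 83.5% in TKO_FL (71.7 to 91.8) and 66.7% in TKO (50.1 to 80.7). Rhox2g and Rhox2h, which lie on the minus strand at the far end of the subcluster, made up 26.6% in TKO_602 (21.2 to 32.7), 1.65% in TKO_FL (0.0418 to 8.87) and 4.94% in TKO (0.604 to 16.7). This pair, which reached 1 CPM in TKO_602 only, and the set without Rhox2a were chosen with the counts known. Their shares, ratios and intervals therefore describe these counts and are not a test of the pattern.

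**Figure D3:**
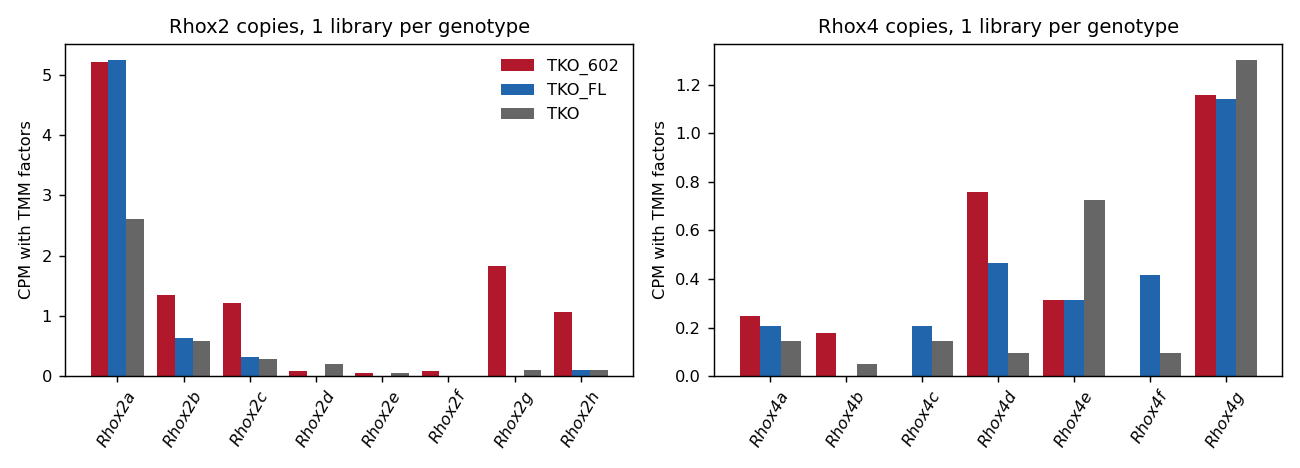
CPM of the 8 Rhox2 copies (left) and the 7 Rhox4 copies (right), in their order along the chromosome, with 1 bar per library and no replicates. Rhox2a is equally high in TKO_602 and TKO_FL, whereas Rhox2b, Rhox2c, Rhox2g and Rhox2h reach 1 CPM in TKO_602 only, and Rhox4g is alike in the 3 libraries.

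The sequences at the starts of these copies show how close they are there. Most of each sequence lies before the annotated start, so it does not show where RNA reads tell the copies apart. The windows are those of RefSeq on GRCm38.p6, the assembly that mm10 is built on, and run from 250 bases before to 50 after the annotated gene start, 5′ to 3′ on the gene's strand, with CG dinucleotides in capitals, the sites at which DNA methyltransferases act. They are chrX:37244742-37245041 (plus strand) for Rhox2a, chrX:37643421-37643720 (minus strand) for Rhox2g and chrX:37673228-37673527 (minus strand) for Rhox2h.
Rhox2a: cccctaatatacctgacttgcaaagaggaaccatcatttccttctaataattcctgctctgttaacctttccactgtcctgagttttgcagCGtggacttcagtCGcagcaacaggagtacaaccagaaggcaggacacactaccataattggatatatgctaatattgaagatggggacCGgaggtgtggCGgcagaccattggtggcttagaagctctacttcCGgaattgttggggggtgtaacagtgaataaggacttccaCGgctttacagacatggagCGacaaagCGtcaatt
Rhox2g: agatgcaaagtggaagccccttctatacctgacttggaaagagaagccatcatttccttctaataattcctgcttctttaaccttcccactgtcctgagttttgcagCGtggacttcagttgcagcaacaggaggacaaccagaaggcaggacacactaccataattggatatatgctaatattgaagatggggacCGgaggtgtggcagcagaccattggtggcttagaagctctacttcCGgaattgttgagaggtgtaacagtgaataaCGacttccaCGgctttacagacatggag
Rhox2h: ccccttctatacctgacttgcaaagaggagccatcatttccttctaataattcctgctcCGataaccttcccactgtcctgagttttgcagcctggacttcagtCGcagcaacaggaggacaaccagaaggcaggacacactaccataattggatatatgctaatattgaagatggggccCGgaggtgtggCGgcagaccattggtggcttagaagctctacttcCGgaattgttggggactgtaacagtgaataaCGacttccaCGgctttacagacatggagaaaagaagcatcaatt

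Rhox2a held 8 CG dinucleotides in this window, Rhox2g 5 and Rhox2h 7. In pairwise alignments, Rhox2a and Rhox2g were identical at 271 of 285 aligned positions, Rhox2a and Rhox2h at 283 of 300, and Rhox2g and Rhox2h at 271 of 284. Rhox2a and Rhox2b were identical at all 278 aligned positions, and Rhox2a and Rhox2c at 299 of 300, although Rhox2a had several times the CPM of either in TKO_FL and in TKO. Over the 7 Rhox2 copies with a window, 21 pairs were 94.0% to 100% identical, with a median of 95.1%.

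Rhox4 copies are known in the mouse from embryonic stem cells and the placenta, and the copy first described there was named Ehox. As a group the 7 copies did not differ by more than counting error, with 2.66 CPM in TKO_602, 2.76 CPM in TKO_FL and 2.56 CPM in TKO, and ratios of 1.04 in TKO_602 against TKO (0.646 to 1.71) and 1.08 in TKO_FL against TKO (0.604 to 1.92). Rhox4g (chrX:37646501-37651327, minus strand), which lies between Rhox2g and Rhox2h, was the only Rhox4 copy above 1 CPM. It had 52 reads or 1.16 CPM in TKO_602, 22 reads or 1.14 CPM in TKO_FL and 27 reads or 1.30 CPM in TKO. Its level was thus alike in the libraries in which the Rhox2 copies on either side of it differed. Rhox4d had 34 reads in TKO_602, 9 in TKO_FL and 2 in TKO, whereas Rhox4e had 14, 6 and 15 reads in the same order. Rhox4f had 0 reads in TKO_602, 8 in TKO_FL and 2 in TKO. Rhox4a, Rhox4b and Rhox4c had between 0 and 11 reads. The promoter windows of 6 Rhox4 copies were 92.2% to 99.6% identical over 15 pairs, with a median of 96.3%. The Rhox3 copies were nearly silent: Rhox3g and Rhox3h had at most 2 reads in any library, and the other 4 had none.

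In the beta subcluster, Rhox5 (chrX:37754608-37808878, plus strand), the founding member, known as Pem and as an androgen-regulated gene of Sertoli cells in the testis, was the most abundant. It had 6663 reads or 149 CPM in TKO_602, 1958 reads or 102 CPM in TKO_FL and 2342 reads or 113 CPM in TKO. The ratio was 1.31 in TKO_602 against TKO (1.23 to 1.41), 0.900 in TKO_FL against TKO (0.826 to 0.981) and 1.46 in TKO_602 against TKO_FL (1.36 to 1.57). Rhox5 was therefore highest in TKO_602 and lowest in TKO_FL, by less than 2-fold in each comparison, and its counts are deep enough for these intervals to be narrow. Per kilobase of exon it stood at 186 CPM in TKO_602, 127 CPM in TKO_FL and 141 CPM in TKO, and the next member, Rhox13, reached 10.1 CPM per kilobase in TKO_602. The annotated Rhox5 begins with an exon of 50 bases that lies 50190 bases before the next one, and the promoter window of the reference table belongs to this distant start. The window, chrX:37754358-37754657 on the plus strand, is shown with its 5 CG dinucleotides in capitals, since Rhox5 carries most of the family's reads. Starts nearer the other exons are not covered by it.
Rhox5: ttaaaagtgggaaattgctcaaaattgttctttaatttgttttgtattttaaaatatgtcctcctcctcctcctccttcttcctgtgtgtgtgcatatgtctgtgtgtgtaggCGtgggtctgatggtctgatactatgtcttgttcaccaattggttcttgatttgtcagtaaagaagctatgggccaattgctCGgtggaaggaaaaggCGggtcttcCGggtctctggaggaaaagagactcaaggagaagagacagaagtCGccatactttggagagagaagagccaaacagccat

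Rhox6 (chrX:37827055-37829857) and Rhox9 (chrX:37899097-37901770) are the mouse genes named Psx1 and Psx2 for their expression in the placenta, and they are also expressed in germ cells. Rhox9 had 384 reads or 8.57 CPM in TKO_602, 130 reads or 6.76 CPM in TKO_FL and 58 reads or 2.80 CPM in TKO. TKO was the low library: the ratio was 3.06 in TKO_602 against TKO (2.06 to 4.69, log2 fold 1.33), 2.41 in TKO_FL against TKO (1.54 to 3.88, log2 fold 1.03) and 1.27 in TKO_602 against TKO_FL (0.952 to 1.71). On the log2(CPM + 1) scale Rhox9 was the only tested member past 2-fold in TKO_602 and also in TKO_FL when each was set against TKO, while on plain ratios Rhox2a reached 2.00 and 2.01. Rhox6 had 255 reads or 5.69 CPM in TKO_602, 112 reads or 5.82 CPM in TKO_FL and 95 reads or 4.59 CPM in TKO, with a ratio of 1.24 in TKO_602 against TKO (0.883 to 1.77), so this close relative of Rhox9 did not differ beyond counting error. Rhox7a had 13 reads in TKO_602, 4 in TKO_FL and 2 in TKO. Rhox8, known from Sertoli and granulosa cells of the gonads, had 0 reads in the 3 libraries.

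In the gamma subcluster, Rhox13 (chrX:38120840-38129966, plus strand), a mouse germ cell gene at the far end of the cluster, had 568 reads or 12.7 CPM in TKO_602, 119 reads or 6.19 CPM in TKO_FL and 83 reads or 4.01 CPM in TKO. The 3 libraries stood apart from each other: the ratio was 3.16 in TKO_602 against TKO (2.28 to 4.49), 1.54 in TKO_FL against TKO (1.02 to 2.35) and 2.05 in TKO_602 against TKO_FL (1.54 to 2.76). Its log2 fold in TKO_602 against TKO, 1.45 with a pseudocount of 1, was the highest of the 12 members. Rhox10 (chrX:38066475-38071688), needed in the mouse for the germline stem cells of the testis, had 76 reads or 1.70 CPM in TKO_602, 21 reads or 1.09 CPM in TKO_FL and 34 reads or 1.64 CPM in TKO, and its log2 fold was 0.03 in TKO_602 against TKO and -0.34 in TKO_FL against TKO (ratio 0.665, 0.277 to 1.52). Rhox11 had 2 reads in TKO_602 and 0 elsewhere, and Rhox12 had none. The start of Rhox13 is shown because its log2(CPM + 1) fold was the highest. On plain ratios of CPM, with wide intervals, Rhox2g, Rhox2h and Rhox2c stood above it. Its window, chrX:38120590-38120889 on the plus strand, has 5 CG dinucleotides in capitals.
Rhox13: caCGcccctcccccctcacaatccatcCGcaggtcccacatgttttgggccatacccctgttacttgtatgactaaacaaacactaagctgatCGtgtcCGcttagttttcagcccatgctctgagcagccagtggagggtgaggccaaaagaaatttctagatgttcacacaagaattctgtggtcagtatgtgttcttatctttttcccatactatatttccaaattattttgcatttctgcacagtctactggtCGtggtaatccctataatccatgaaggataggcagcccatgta

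Behind Rhox5 the order of the members per kilobase of exon differed between libraries. In TKO_602 it ran from Rhox13 (10.1 CPM per kilobase) and Rhox9 (9.71) to Rhox6 (6.58), Rhox2a (6.28) and Rhox1 (5.64). In TKO_FL Rhox1 (8.37 CPM per kilobase) and Rhox9 (7.66) led, followed by Rhox6 (6.73), Rhox2a (6.31) and Rhox13 (4.93). In TKO Rhox1 (5.91 CPM per kilobase) and Rhox6 (5.30) led, and Rhox13 (3.20), Rhox9 (3.17) and Rhox2a (3.13) were nearly equal. Neighbours within such runs are close to each other, and no order among them was tested.

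A promoter window was available for 25 of the 31 members, without Rhox2f, Rhox4d, Rhox6, Rhox7a, Rhox8 and Rhox9, and 24 of these starts match the gene starts of the count table. The windows of the members were neither rich nor unusually poor in CG. They held a median of 7 CG dinucleotides, with a range of 0 in Rhox1 to 12 in Rhox4a, beside a median of 7 and quartiles of 3 and 20 over all 32851 windows. Rhox3 copies had 2 to 4, Rhox2 copies 5 to 9 and Rhox4 copies 10 to 12. Short motifs were searched on either strand. CCGGAA, the core of ETS-family sites, was present in 8 of 25 windows, which were all 7 Rhox2 windows and that of Rhox5, and in 14.9% of all windows. CACGTG, an E-box, was present in 4 of 25 (Rhox4b, Rhox4e, Rhox4f and Rhox4g) and in 7.15% of all windows. GCGGGA, the core of E2F sites, was found in 0 of 25 and in 20.0% of all windows. Copies share their sequence, so these counts are not independent, and a match is not a site of binding.

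**Figure D4:**
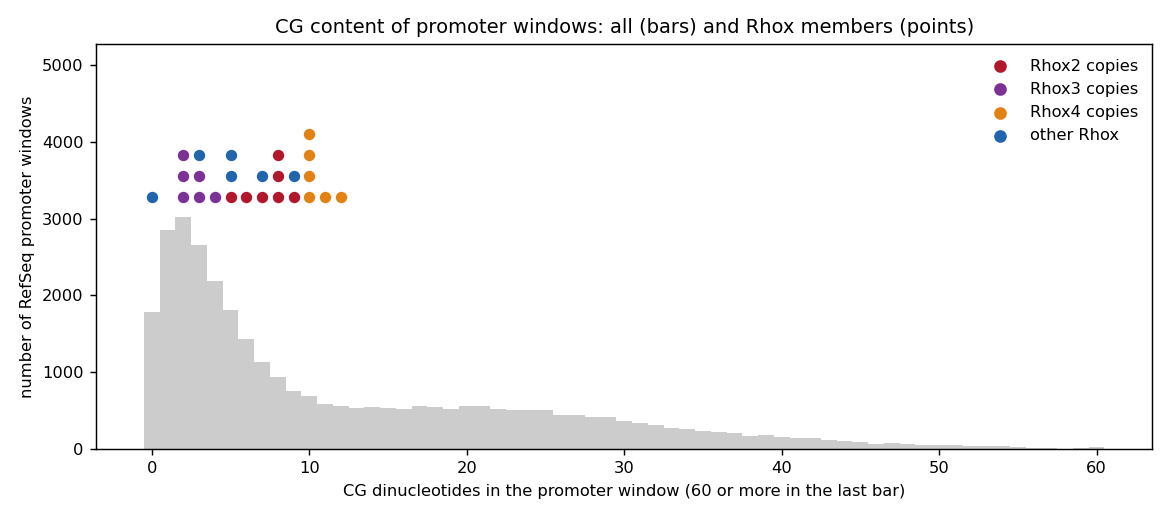
Number of CG dinucleotides in RefSeq promoter windows (x axis) for all 32851 windows (grey bars, y axis) and for 25 Rhox members (points, stacked above their CG count, their height having no unit). The members lie between 0 and 12 CG dinucleotides, and the copies of a gene lie close together.

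The genes around the cluster were all within 2-fold. Of the 10 nearest genes with at least 1 CPM, 5 on each side, 0 were past 2-fold in TKO_602 against TKO, in TKO_FL against TKO or in TKO_602 against TKO_FL, where 19.0%, 5.74% and 11.6% of all genes were, so that few of 10 would be past it at those shares. The log2 folds of these neighbours ranged from -0.80 to 0.71 in TKO_602 against TKO, with a median of -0.13, and from -0.78 to 0.47 in TKO_FL against TKO, with a median of -0.14. At the ends of the first range were Zbtb33, which encodes the methyl-CpG-binding factor Kaiso, with 18.7 CPM in TKO_602, 27.1 CPM in TKO_FL and 33.3 CPM in TKO, and Lamp2, a lysosomal membrane protein gene, with 87.9, 74.4 and 53.4 CPM in the same order. Inside the cluster, Btg1b, Btg1c and LOC102637882 had 0 reads in every library.

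**Figure D5:**
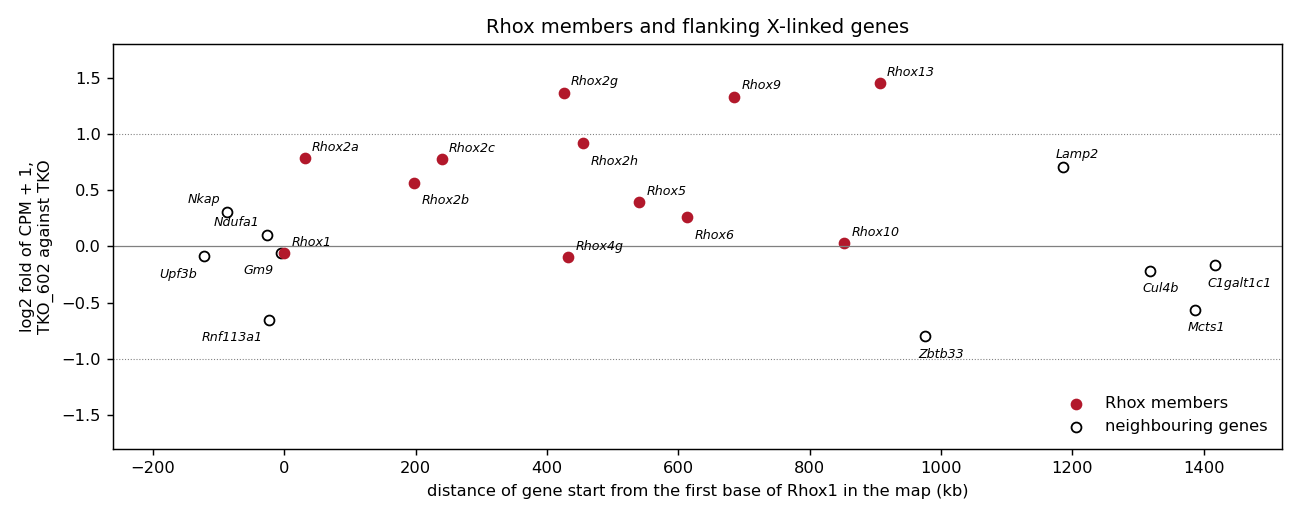
Log2 fold of CPM + 1 in TKO_602 against TKO (y axis) against the distance of each gene's start from the start of the cluster in kilobases (x axis), for the 12 members with at least 1 CPM (red) and 10 flanking genes (open circles). Rhox2g, Rhox9 and Rhox13 lie above the dotted 2-fold line, the other 9 members lie between -0.09 and 0.92, and the flanking genes lie between -0.80 and 0.71.

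Genes linked in the mouse to the silencing or activation of Rhox and germline genes were read as a list of 26, all of them at 1 CPM or more. In TKO_602 against TKO 1 was at least 2-fold higher and 6 were lower, with a median log2 fold of -0.34, and in TKO_FL against TKO 1 was higher and 3 were lower, with a median of -0.23. Of all genes, 11.0% were higher and 8.06% lower in TKO_602 against TKO, and 3.24% and 2.50% in TKO_FL against TKO. Dnmt1 was the higher one in each case. Gata4 and Gata6, which are also on the primitive endoderm list, are among the lower ones in each case. The de novo methyltransferase gene Dnmt3b stood at 11.9 CPM in TKO_602, 34.0 CPM in TKO_FL and 71.7 CPM in TKO, and the cofactor gene Dnmt3l had 226, 408 and 658 CPM in the same order. Of 7 genes proposed as RHOX5 targets in mouse Sertoli cells, only Insr and Pltp reached 1 CPM. Insr, the insulin receptor gene, had 33.9 CPM in TKO_602, 17.5 CPM in TKO_FL and 13.1 CPM in TKO, and Pltp, a phospholipid transfer protein gene, had 44.4, 41.2 and 18.2 CPM in the same order, both past 2-fold in TKO_602 against TKO. Pltp was also past 2-fold in TKO_FL against TKO (log2 fold 1.14), and Insr was not (0.39). Whether RHOX5 affects either gene in these cells was not tested.

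Other germline and homeobox genes were read from lists, with the shares of all genes given above as the background. These were 11.0% higher and 8.06% lower in TKO_602 against TKO, and 3.24% and 2.50% in TKO_FL against TKO. They were 6.75% and 4.87% in TKO_602 against TKO_FL. Of 33 germline genes known for promoter methylation, 8 of 31 tested were past 2-fold upwards and 1 downwards in TKO_602 against TKO, with a median of 0.43, and 6 of 32 upwards and 0 downwards in TKO_FL against TKO, with a median of 0.40. In TKO_602 against TKO_FL, 2 of 32 germline genes were higher and 3 lower, with a median of -0.01. Meiob, a meiotic recombination gene, had 20.3 CPM in TKO_602, 7.44 CPM in TKO_FL and 0.773 CPM in TKO, and Stra8, a gene of meiotic entry, had 30.9, 18.3 and 4.97 CPM in the same order. Meiob entered the counts against TKO only through TKO_602 or TKO_FL, where it is high. Syce1, a synaptonemal complex gene chosen after its values were seen, had 9.86, 20.5 and 20.8 CPM, so germline genes did not share one order of the libraries. Among 24 other homeobox genes of the reproductive tract, placenta and early embryo, 2 of 11 tested were higher and 1 was lower in TKO_602 against TKO, which is near the background. The counts in TKO_FL against TKO were 2 of 9 higher and 1 lower, above the background shares but from few genes. Between TKO_602 and TKO_FL, 2 of 10 were higher and 2 lower in TKO_602. Esx1, an X-linked placental homeobox gene, had 9.66 CPM in TKO_602, 4.73 CPM in TKO_FL and 0.917 CPM in TKO, and Crxos had 23.9, 5.20 and 1.88 CPM in the same order, whereas Otx2 had 14.2, 43.9 and 50.1 CPM. Esx1 entered the counts against TKO only through TKO_602 or TKO_FL, where it is high. Msx2, the lower gene in TKO_FL against TKO, entered only through TKO. Gsc and Dux, past 2-fold between TKO_602 and TKO_FL, each entered that count only through the library where it is high.

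Markers of other cell types also differed between these libraries, and in bulk RNA fewer cells of a type and less RNA per cell cannot be told apart. Of all genes, 11.0% were higher and 8.06% lower in TKO_602 against TKO, and 3.24% and 2.50% in TKO_FL against TKO. Primitive endoderm markers summed to 1420 CPM in TKO_602, 911 CPM in TKO_FL and 3458 CPM in TKO, and 11 of 15 tested were at least 2-fold lower in TKO_602 and 14 of 15 in TKO_FL, each against TKO. Fibroblast markers summed to 501 CPM in TKO_602, 353 CPM in TKO_FL and 663 CPM in TKO, with 5 and 6 of 14 lower in TKO_602 and TKO_FL. The endoderm marker Foxa2 entered these counts only through TKO, as did Sox7 and the fibroblast marker Twist2 in TKO_602 against TKO. Trophoblast markers summed to 165 CPM in TKO_602, 187 CPM in TKO_FL and 110 CPM in TKO, of which Tfap2c alone supplied 58.0, 133 and 27.5 CPM. In TKO_602 against TKO, 4 of the 9 tested trophoblast genes were higher, with a median log2 fold of 0.64. In TKO_FL against TKO, 2 were higher and 1 lower, with a median of -0.38. Among them Tpbpa had 0 reads in every library and Elf5 had 2, 0 and 0 reads in TKO_602, TKO_FL and TKO. Krt7 and Esx1 entered the trophoblast counts against TKO only through TKO_602 or TKO_FL, where they are high. Germ cell markers summed to 409 CPM in TKO_602, 324 CPM in TKO_FL and 224 CPM in TKO, with 1 of 6 tested higher in TKO_602 and 0 in TKO_FL against TKO, and Nanos2 at 0 in every library. With so few genes, these germ cell counts are near the shares of all genes. Of 8 stem cell markers, 2 were higher (Klf4 and Dppa5a) and 0 lower in TKO_602 against TKO. In TKO_FL against TKO 0 were past 2-fold. Klf4 had 356, 169 and 155 CPM in TKO_602, TKO_FL and TKO, and Zfp42 had 589, 1200 and 892 CPM. In TKO_602 against TKO_FL, Klf4 was past 2-fold upwards and Zfp42 downwards, where 6.75% of all genes were higher and 4.87% lower. The lists overlap: Esx1 and Cdx2 are on the homeobox and the trophoblast list, Nanog and Pou5f1 on the homeobox and the stem cell list, Dazl, Ddx4, Nanos2 and Nanos3 on both germline lists, and Zfp42 on the regulator, germline and stem cell lists. The part of these cell types in the Rhox values was not tested.

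Another deposited table, in TPM (transcript abundance scaled for length and library) from whole fragments rather than reads, held TKO_FL and TKO. In it 22 members had signal and 12 reached 1 TPM, of which 2 were past 2-fold upwards in TKO_FL and 0 downwards, with a median log2 fold of 0.41. Of all 13642 genes that reached 1 TPM, 489 were past 2-fold upwards and 417 downwards. Rhox9 stood at 16.8 TPM in TKO_FL and 6.76 TPM in TKO, from 67 and 29 fragments. Rhox4d, at 6 fragments in TKO_FL and 0 in TKO, was the other one. Rhox4d and Rhox4f entered the 12 only through TKO_FL, where they are high, and Rhox4e only through TKO. The count and the median include these members. Rhox5 stood at 345 TPM in TKO_FL and 382 TPM in TKO, so the direction of its difference was that of the CPM.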

How the data were processed

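RNA-seq of 3 J1 embryonic stem cell libraries, 1 per genotype, was used, grouped by the genotype in the titles. Per the file headers, the authors counted reads with featureCounts 2.0.6 on RefSeq genes of mm10, each mate alone, without strand and without reads that map to several places; Trim Galore, HISAT2 and SAMtools are named in the submitters' processing notes. Where strand is not used, reads of overlapping and antisense genes cannot be told apart. The deposited signal table, named TPM, sums to 10 times the total that defines TPM and was divided by 10. Each table has 11 further columns that match no sample here and were not used.

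Counts were scaled to CPM with TMM factors (1.04 for TKO_602, 0.983 for TKO_FL and 0.980 for TKO) from edgeR 4.0.16 in R 4.3.3. Log2 folds used a pseudocount of 1, genes with at least 1 CPM in either library and a 2-fold threshold. No test across libraries is possible with 1 library per genotype. Exact 95% Clopper-Pearson intervals were computed in Python 3.11.15 with scipy 1.17.1 from reads divided by 2, since mates are counted alone; PCR duplicates are not removed, and intervals and the floor of 3 fragments cover counting error only. The fold step was tested on simulated reads drawn independently of each other, with large changes in genes at 5 CPM or more. That setting is simpler than these data. It does not cover lower genes, folds near the threshold or mates counted alone. Alternatives were DESeq2 1.42.0 size factors, plain library totals, pseudocounts of 0.1 and 5, no filter, at least 5 CPM, and the TPM table. Leaving out Rhox5 or the copies was added after seeing the data. The set of Rhox2 copies without Rhox2a and the pair of Rhox2g and Rhox2h were also chosen with the counts known. Every Rhox member with reads was named, with full values for those at 1 CPM or more. Members and lists were chosen with earlier results of these data known. Promoter windows came from RefSeq (GRCm38.p6) and were aligned in pairs without end-gap penalties.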

Additional observations from a re-analysis of the deposited data

How the results depend on the processing

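No paired analysis was possible because each genotype has 1 library, and for the same reason no library could be left out. The count of Rhox members past 2-fold depended on the pseudocount. In TKO_602 against TKO it was 3, and 6 with a pseudocount of 0.1 (Rhox2b, Rhox2c and Rhox2h added) and 0 with 5. In TKO_FL against TKO it was 1, and 0 with a pseudocount of 5 and 2 in the TPM table. In TKO_602 against TKO_FL it was 1, and 4 with 0.1, 0 with 5, 2 with plain library totals (Rhox13 at 1.00 added), and 0 with at least 5 CPM or without the Rhox2, Rhox3 and Rhox4 copies, settings that remove Rhox2g. A larger pseudocount shrinks every low gene by construction: with 5, the genes past 2-fold numbered 1212, 175 and 618 in the 3 comparisons in this order, beside 2614, 779 and 1591, and with 0.1 they numbered 3472, 1474 and 2384. Without Rhox5 the log2 ratio of the family's summed CPM was 0.93 (0.51 with it), 0.56 (0.01) and 0.37 (0.50). The family sum of TKO_FL against TKO stayed between -0.024 and 0.0097 under the other scalings, in the TPM table and without the copies, and so has no direction, while the sums of the other comparisons stayed above 0. No member past 2-fold changed sign. Of 136 member values under other settings, 4 had the opposite sign, all near 0: Rhox1, Rhox2a and Rhox6 with plain library totals, which shift the median of all genes to 0.12 in TKO_602 against TKO and 0.11 in TKO_602 against TKO_FL, and Rhox4g in the TPM table. Members with at most 6 reads rest on about 3 fragments or fewer, so their levels and ratios are uncertain. A count of 0 does not exclude a level under the floor.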

Other observations

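Rhox5 had fewer reads per fragment than nearly all genes. The count table held 1.57 reads per fragment of the TPM table for Rhox5 in TKO_FL and 1.58 in TKO, against medians of 1.94 and 1.95 over genes with at least 10 fragments. Only 1.14% of 13254 such genes in TKO_FL and 1.12% of 13251 in TKO were at or below Rhox5. Rhox9 had 1.94 in TKO_FL and 2.00 in TKO, and Rhox6 had 1.96 and 1.94, so these neighbours of Rhox5 lay near the medians. The ratio joins tables that were made separately, and Rhox2a had 2.06 in TKO_FL, so they do not count exactly the same reads. Why Rhox5 was low was not tested.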
